A study of Mus musculus with 40 samples.

Results

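Chemokine ligands of the CC and CXC families were followed in mouse cortex by bulk RNA sequencing. They comprise 10 genes, 7 CC ligands (*Ccl2*, *Ccl3*, *Ccl4*, *Ccl5*, *Ccl6*, *Ccl9* and *Ccl12*) and 3 CXC ligands (*Cxcl12*, *Cxcl14* and *Cxcl16*). They were taken by gene name from the 43346 genes of the deposited count table, and all 10 passed the filter on low counts that left 21253 genes to test. *Cxcl10*, whose expression is driven by interferons, was not counted among them and is given below with the other ligands.

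Each of 4 groups held the cortices of 10 mice, 5 of either sex, for 40 libraries in all. Mice of the amyloid cohort were 8.5 months old and hemizygous for 5xFAD, transgenes that express mutant human APP in neurons under the *Thy1* promoter. Mice of the non-amyloid cohort were 6 months old and had no 5xFAD transgene. In each cohort, WT mice had the normal *Trem2* gene and Hom mice were homozygous for *Trem2* H157Y, a CRISPR/Cas9 knock-in present in every cell and derived from 1 founder. TREM2 is a lipid-sensing receptor of microglia. Cohort, transgenes and age differ together, so that their parts in a difference between cohorts cannot be told apart. RNA was extracted from whole cortex, and fewer cells of a type and less RNA per cell cannot be told apart in such samples.

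Chemokines are small secreted proteins that guide cells bearing matching G protein-coupled receptors along a gradient. CC ligands mainly attract monocytes, other myeloid cells and T cells, and in the brain several of these ligands are made by activated microglia. CXCL12 and CXCL14 are made without inflammation by vascular, neural and stromal cells, and CXCL16 is anchored to the membrane until proteases release it.

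Total counts per library ranged from 41646271 to 105903846, with a median of 77193387. In amyloid Hom replicate 19, a female with the lowest total, 0.299% of counts fell on 139 genes overlapped by opposite-strand exons, against 0.0141% to 0.0186% in the other 39 libraries. Results are therefore given with and without that library where it matters. *Trem2*, the targeted gene, had a median of 10.4 CPM (counts scaled to a common library size with the trimmed mean of M values, TMM) in non-amyloid WT mice and 10.3 CPM in non-amyloid Hom mice. It had a median of 55.5 CPM in amyloid WT mice and 34.3 CPM in amyloid Hom mice. The knock-in changes a single residue, so the level of *Trem2* does not check the genotype. *Thy1* (log2 fold change 1.64 ± 0.10 SE) and *App* (0.27 ± 0.05) were higher in amyloid WT than in non-amyloid WT mice, with adjusted p = 9.21e-17 and 9.41e-05 by edgeR's quasi-likelihood test.

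All 7 CC ligands lie on chromosome 11 of mm10, in 2 groups. *Ccl2* (82035571 to 82037453, plus strand) and *Ccl12* (82101845 to 82103400, plus strand) start 66.3 kb apart. The start sites of the other 5 span 132.1 kb: *Ccl5* (83525778 to 83530518, minus strand), *Ccl9* (83572919 to 83578636, minus strand), *Ccl6* (83587882 to 83593087, minus strand), *Ccl3* (83647844 to 83649355, minus strand) and *Ccl4* (83662584 to 83664683, plus strand). *Ccl3* and *Ccl4* are neighbours whose start sites are 13.2 kb apart and which are read in opposite directions. *Cxcl16* is on the same chromosome (70453983 to 70459984, minus strand), *Cxcl12* is on chromosome 6 (117168535 to 117181367, plus strand) and *Cxcl14* is on chromosome 13 (56288647 to 56296551, minus strand). *Cxcl16* alone shares exon bases with another gene: 552 bases are also exon of *Zmynd15* on the opposite strand, which had a median of 0.259 CPM beside 1.46 CPM for *Cxcl16*.

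The 250 bases before the start site were examined for the 6 members found in RefSeq's promoter table for GRCm38.p6 (*Ccl3*, *Ccl6*, *Ccl9*, *Ccl12*, *Cxcl12* and *Cxcl14*). Sequences are printed for 3 CC ligands that differed between the cohorts and for *Cxcl12*, which did not, to show how the windows differ in composition. Each is written 5′ to 3′ on the strand of its gene, with letters that match a searched motif in capitals.
Ccl3, chr11:83649379-83649628, minus strand: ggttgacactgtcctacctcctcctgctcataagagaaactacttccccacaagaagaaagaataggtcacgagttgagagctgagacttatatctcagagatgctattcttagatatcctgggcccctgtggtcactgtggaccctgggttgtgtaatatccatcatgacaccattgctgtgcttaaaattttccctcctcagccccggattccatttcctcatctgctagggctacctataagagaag
Ccl9, chr11:83578637-83578886, minus strand: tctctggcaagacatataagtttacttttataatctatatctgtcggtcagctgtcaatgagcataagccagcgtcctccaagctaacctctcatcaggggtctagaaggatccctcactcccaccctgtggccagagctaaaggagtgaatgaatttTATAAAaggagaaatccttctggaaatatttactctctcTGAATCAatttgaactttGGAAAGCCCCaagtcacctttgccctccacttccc
Ccl12, chr11:82101595-82101844, plus strand: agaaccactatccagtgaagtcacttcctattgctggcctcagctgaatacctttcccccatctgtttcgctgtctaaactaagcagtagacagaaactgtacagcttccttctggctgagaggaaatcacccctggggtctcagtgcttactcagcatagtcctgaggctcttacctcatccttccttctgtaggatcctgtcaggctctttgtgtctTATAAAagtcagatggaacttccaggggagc
Cxcl12, chr6:117168285-117168534, plus strand: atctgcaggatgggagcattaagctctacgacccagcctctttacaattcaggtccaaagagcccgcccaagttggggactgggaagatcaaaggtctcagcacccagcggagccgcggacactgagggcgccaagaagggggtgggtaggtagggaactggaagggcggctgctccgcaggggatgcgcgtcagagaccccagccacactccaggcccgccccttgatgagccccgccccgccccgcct

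The motifs searched were the NF-kB consensus, the interferon-stimulated response element (GAAA repeated after any 2 bases), the AP-1 site TGANTCA and the PU.1 core GAGGAAG on both strands, and TATAAA on the strand of the gene. In the *Ccl9* window the capitals mark a TATAAA, an AP-1 match and an NF-kB match, with no base shared between them. In the *Ccl12* window they mark a TATAAA that ends 26 bases before the start site. The *Ccl3*, *Ccl6* and *Cxcl12* windows held none of these letters, and the *Cxcl14* window held 1 match to the response element. Among 27025 genes with such a window, 8.94% held TATAAA, 7.82% the AP-1 site, 4.46% the NF-kB consensus, 3.46% the response element and 12% the PU.1 core. A match describes the letters and does not show that a factor binds there. The 4 CC windows had a GC content of 43.6% (*Ccl9*) to 48.4% (*Ccl12*) and 1 or 2 CpG dinucleotides each. *Cxcl12* (64.4% GC, 14 CpG) and *Cxcl14* (59.6% GC, 16 CpG) lay above the median of 52.4% GC and 6 CpG over 32851 windows.

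Most of the CC ligands and *Cxcl16* were far higher in the amyloid cohort, while *Cxcl12* and *Cxcl14* were not. A gene was called when its Benjamini-Hochberg adjusted p was under 0.05 by edgeR's quasi-likelihood test, adjusted over all 21253 genes, and its log2 fold change was over 0.25 in size. In WT mice 7 of the 10 ligands were called higher in the amyloid cohort and none lower, where 6.62% of all genes tested were called higher. In Hom mice 5 of 10 were called higher, where 5.71% of all genes were. The median log2 fold change of the 10 ligands was 1.83 in WT and 1.22 in Hom mice, beside 0.00 and 0.03 over all genes tested. The WT and Hom comparisons use separate mice, but each shares its mice with the comparisons of Hom to WT given below.

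*Ccl3*, which encodes a ligand of CCR1 also known as MIP-1α, had the largest difference of the 10. In non-amyloid WT mice it ranged from 0 to 0.266 CPM with a median of 0.119, and in non-amyloid Hom mice from 0.0215 to 0.214 with a median of 0.116. In amyloid WT mice it ranged from 3.71 to 14.4 CPM with a median of 6.60, and in amyloid Hom mice from 1.71 to 6.07 with a median of 3.14. Every amyloid mouse lay above every non-amyloid mouse. The difference between cohorts was 58.5-fold in WT (log2 fold change 5.87 ± 0.34 SE, adjusted p = 8.88e-17) and 30.5-fold in Hom mice (4.93 ± 0.34, adjusted p = 2.50e-14). Non-amyloid libraries held at most 20 *Ccl3* counts, so the lower level behind these folds rests on few reads.

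*Ccl4*, whose product MIP-1β attracts monocytes and T cells, had the next largest difference. Its median was 0.078 CPM (0 to 0.204) in non-amyloid WT and 0.041 CPM (0 to 0.085) in non-amyloid Hom mice. It was 1.79 CPM (0.855 to 3.29) in amyloid WT and 0.996 CPM (0.545 to 1.93) in amyloid Hom mice. The cohorts did not overlap in either genotype. The difference was 24.9-fold in WT (4.64 ± 0.35, adjusted p = 1.48e-13) and 25.9-fold in Hom mice (4.70 ± 0.37, adjusted p = 2.61e-12). Non-amyloid libraries held at most 13 *Ccl4* counts, so the lower level behind these folds rests on few reads. *Ccl4* passed the filter on low counts only through the amyloid cohort, where it was higher. Its place among the ligands called and not overlapping is to be read with that limit.

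*Ccl6*, a CC ligand of rodents that binds CCR1, was the most abundant CC ligand in the amyloid cohort. It ranged from 0.926 to 2.21 CPM with a median of 1.4 in non-amyloid WT mice and from 0.958 to 1.85 with a median of 1.31 in non-amyloid Hom mice. In the amyloid cohort it ranged from 11.3 to 40.0 CPM with a median of 21.6 in WT and from 6.65 to 19 with a median of 12.6 in Hom mice. The lowest amyloid mouse was thus above every non-amyloid mouse. The difference was 16.3-fold in WT (4.02 ± 0.20, adjusted p = 3.44e-19) and 9.31-fold in Hom mice (3.22 ± 0.19, adjusted p = 2.50e-16).

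*Ccl9*, the rodent chemokine MIP-1γ that also binds CCR1, had a smaller difference from a higher starting level. Its median was 0.891 CPM (0.478 to 2.43) in non-amyloid WT, 0.829 (0.385 to 1.47) in non-amyloid Hom, 3.88 (2.5 to 5.93) in amyloid WT and 2.16 (1.59 to 4.43) in amyloid Hom mice. The highest non-amyloid WT mouse came close to the lowest amyloid WT mouse, and the groups did not overlap within a genotype. It was 3.51-fold higher in WT (1.81 ± 0.25, adjusted p = 3.21e-07) and 2.67-fold higher in Hom mice (1.42 ± 0.25, adjusted p = 9.42e-05).

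*Cxcl16*, whose product is bound by CXCR6 and takes up lipoproteins at the cell surface, was the CXC ligand that was called. Its median was 1.0 CPM (0.634 to 1.21) in non-amyloid WT, 0.759 (0.628 to 1.16) in non-amyloid Hom, 3.0 (2.02 to 5.79) in amyloid WT and 2.26 (1.70 to 2.84) in amyloid Hom mice. Here too the cohorts did not overlap. It was 3.59-fold higher in WT (1.84 ± 0.16, adjusted p = 4.70e-12) and 2.72-fold higher in Hom mice (1.44 ± 0.16, adjusted p = 1.08e-08). *Ccl3*, *Ccl4*, *Ccl6*, *Ccl9* and *Cxcl16* were thus the 5 ligands with no overlap between cohorts in either genotype, as were 1.95% of all genes tested in WT and 0.875% in Hom mice in the same direction.

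*Ccl12* and *Ccl2* encode ligands of CCR2, the receptor through which monocytes are recruited, and both were called in WT but not in Hom mice. *Ccl12* had a median of 0.437 CPM (0.15 to 0.813) in non-amyloid WT and 1.23 CPM (0.665 to 5.81) in amyloid WT mice. Of the amyloid WT mice, 8 of 10 lay above every non-amyloid WT mouse. The difference was 3.65-fold (1.87 ± 0.33, adjusted p = 5.73e-05). In Hom mice the medians were 0.366 CPM (0.138 to 0.506) and 0.601 CPM (0.232 to 1.37), and the difference missed the threshold (0.89 ± 0.34, adjusted p = 0.1). When amyloid WT replicate 32 was left out of the fit, the *Ccl12* difference in Hom mice was called (0.89, adjusted p = 0.0428). The test of whether the *Ccl12* difference between cohorts depends on genotype gave -0.98 ± 0.47 with adjusted p = 0.480.

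*Ccl2*, which encodes MCP-1, was low throughout, with at most 85 counts in a library. Its median was 0.0714 CPM (0.0155 to 0.211) in non-amyloid WT and 0.173 CPM (0.0834 to 1.16) in amyloid WT mice, and 4 of 10 amyloid WT mice lay above every non-amyloid WT mouse. It was called higher by 3.25-fold (1.70 ± 0.46, adjusted p = 0.00997). That call rested on amyloid WT replicate 32, the mouse at 1.16 CPM, without which the log2 fold change was 1.18 and the adjusted p was 0.0709. By limma-voom with quality weights it was not called either (1.07, adjusted p = 0.13). In Hom mice the medians were 0.0716 and 0.121 CPM, and *Ccl2* was not called (0.93 ± 0.47, adjusted p = 0.236).

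*Ccl5*, which encodes the T cell attractant RANTES, was the lowest of the 10. It had at most 34 counts in any library, and its medians were 0.0474 CPM in non-amyloid WT, 0.0351 in non-amyloid Hom, 0.0928 in amyloid WT and 0.0545 in amyloid Hom mice. The cohorts overlapped, and *Ccl5* was not called in WT (1.07 ± 0.55, adjusted p = 0.260) or Hom mice (1.01 ± 0.60, adjusted p = 0.306).

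*Cxcl12*, the ligand of CXCR4 and ACKR3 made by vascular and meningeal cells and neurons, kept nearly the same level. It ranged from 45.4 to 60.9 CPM with a median of 50.7 in non-amyloid WT mice and from 30.3 to 66.3 with a median of 51.5 in amyloid WT mice. In Hom mice it ranged from 50.6 to 68.6 CPM with a median of 60.6 in the non-amyloid and from 41.3 to 77.3 with a median of 53.2 in the amyloid cohort. The groups overlapped, and the differences were -0.07 ± 0.10 (adjusted p = 0.785) in WT and -0.12 ± 0.10 (adjusted p = 0.510) in Hom mice. *Cxcl14*, made by a group of cortical interneurons among other cells, had medians of 57.6 and 63.0 CPM in non-amyloid and amyloid WT mice, with ranges of 47.9 to 64.2 and 58.9 to 79.2. Its adjusted p was 0.0291, but its log2 fold change of 0.19 ± 0.06 was under the 0.25 required for a call. In Hom mice it differed by 0.03 ± 0.06 (adjusted p = 0.818).

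**Figure D1:**
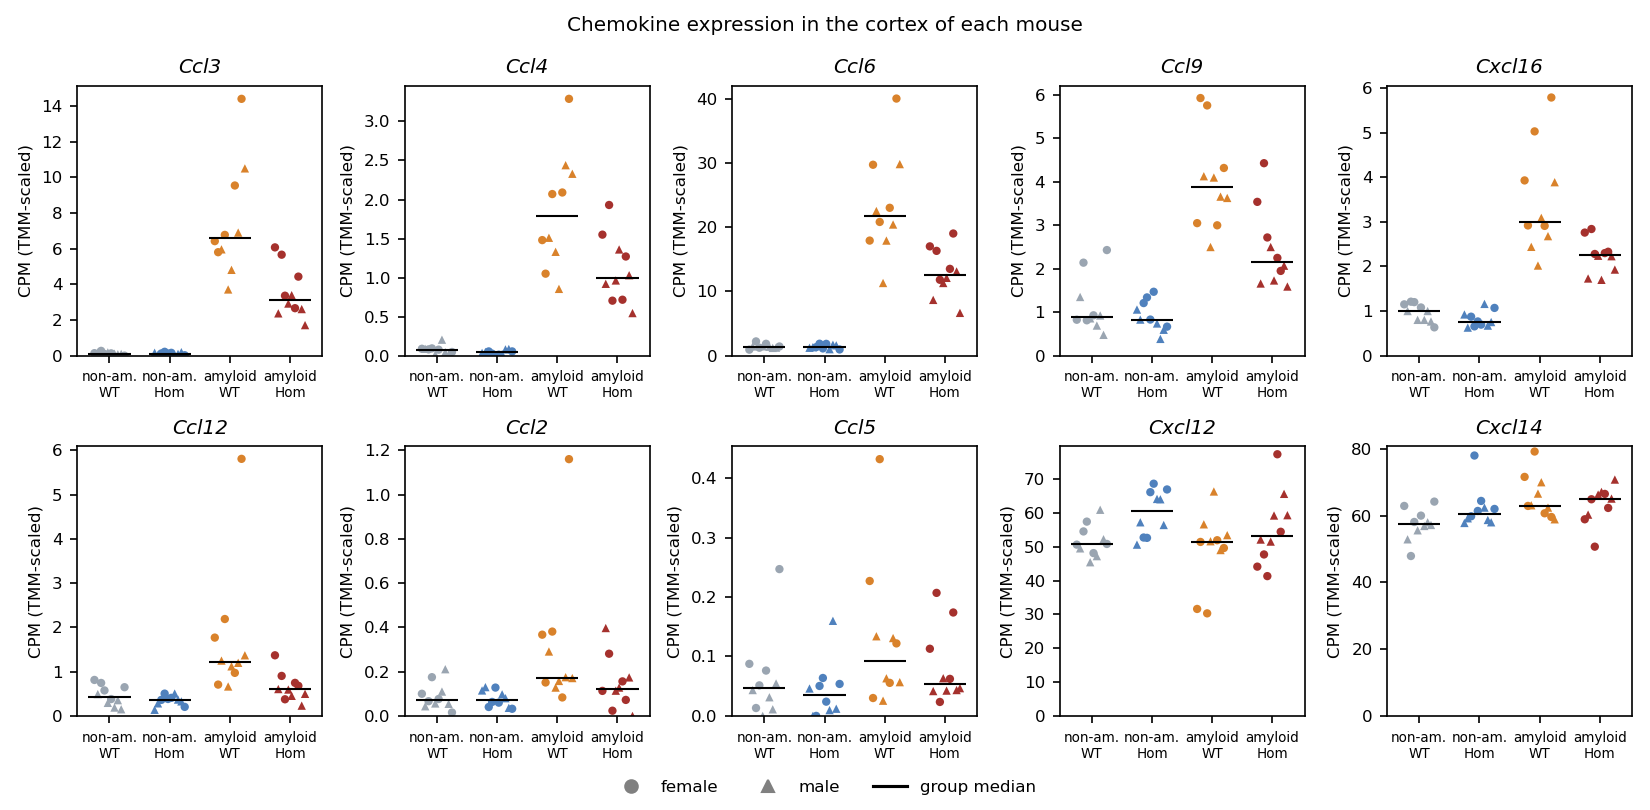
Each panel plots 1 ligand in TMM-scaled CPM (y axis, linear from 0) for the 10 mice of each group (x axis; non-am., non-amyloid), with circles for females, triangles for males and a line at the group median. *Ccl3*, *Ccl4*, *Ccl6*, *Ccl9* and *Cxcl16* separate the cohorts within each genotype, and *Ccl12* and *Ccl2* each have 1 amyloid WT mouse far above the rest, at 5.81 and 1.16 CPM. The group medians of *Cxcl12* and *Cxcl14* stay near 50 to 65 CPM. Single mice range from 30.3 to 77.3 CPM for *Cxcl12* and from 47.9 to 79.2 CPM for *Cxcl14*.

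The order of the ligands was set by their level per length, in CPM per kilobase of exon. *Cxcl14* was highest in all 4 groups, with medians of 31.6 in non-amyloid WT, 33.2 in non-amyloid Hom, 34.6 in amyloid WT and 35.7 in amyloid Hom mice, and it overlapped with no other ligand. In the non-amyloid cohort *Cxcl12* came next (6.20 in WT and 7.41 in Hom), clear of all the rest, and no CC ligand had a median above 0.814. In amyloid WT mice *Ccl6* (12) and *Ccl3* (8.61) stood above *Cxcl12* (6.30) by their medians, but neighbours in this order overlapped. *Ccl4* (2.71), *Ccl12* (2.28), *Ccl9* (1.27) and *Cxcl16* (0.994) followed, each overlapping the next. In amyloid Hom mice *Ccl6* (7.01) and *Cxcl12* (6.51) were close and *Ccl3* came after them (4.09). *Ccl2* and *Ccl5* were last in amyloid WT mice at 0.152 and 0.0967, and *Ccl5* was last in every group.

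**Figure D2:**
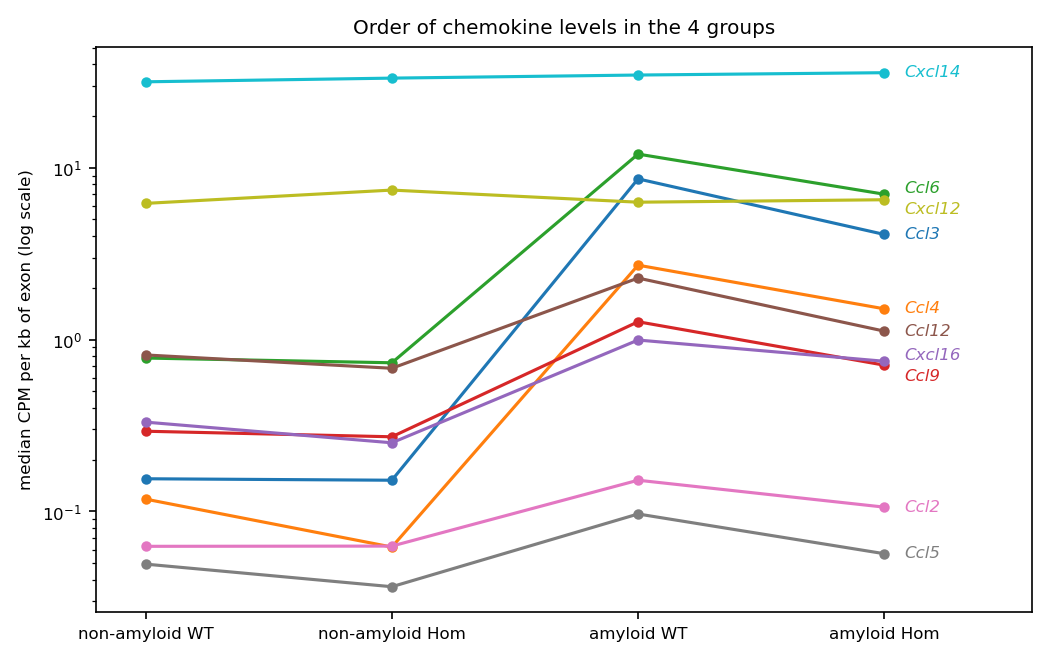
The y axis gives the median CPM per kilobase of exon on a log scale for each ligand in the 4 groups on the x axis, joined by a line per ligand. *Ccl3* moves from 0.155 in non-amyloid WT to 8.61 in amyloid WT mice, while *Cxcl14* stays between 31.6 and 35.7.

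To ask whether *Trem2* H157Y altered these ligands on the amyloid background, the 10 Hom mice were compared to the 10 WT mice. Ligand levels in Hom mice were mostly lower, by 1.55 to 2.63-fold for 8 of them, but none of the 10 was called, where 0.0753% of all genes tested (16) were called in either direction. The log2 fold change was negative for 9 of 10 ligands and its median was -0.73, beside 0.00 over all genes. At an unadjusted p under 0.05 by edgeR, 6 ligands were lower and none higher, where 5.77% of all genes were lower. By limma-voom 0 ligands were called as well, and by DESeq2 5 were. At the same thresholds the paper reports more genes, most of them lower in Hom mice and *Ccl6* among them, after leaving out a Hom female.

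*Ccl3* ranged from 3.71 to 14.4 CPM in WT and from 1.71 to 6.07 in Hom mice, as given above. Of the Hom mice, 7 of 10 lay below every WT mouse and all 10 lay below the WT median. The log2 fold change was -1.09 ± 0.24 (2.13-fold lower), with p = 0.000155 and adjusted p = 0.0555 by edgeR's quasi-likelihood test. The call depended on which mice entered the fit. The adjusted p was 0.0219 without amyloid WT replicate 13, 0.0385 without amyloid WT replicate 22 and 0.0377 without amyloid Hom replicate 3. It was 0.126 without amyloid WT replicate 32, and 17 of the 20 fits that each left out 1 library gave no call.

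*Ccl6* had 7 WT mice above every Hom mouse, and all 10 Hom mice lay below the WT median of 21.6 CPM. Its log2 fold change was -0.85 ± 0.19 (1.80-fold lower, adjusted p = 0.0633 by edgeR). Without WT replicate 13 the adjusted p was 0.0190, and without WT replicate 22 it was 0.0470. Without WT replicate 32 it was 0.134, and 18 of the 20 fits that each left out 1 library gave no call. *Cxcl16* likewise had 7 WT mice above every Hom mouse, at -0.64 ± 0.17 (1.55-fold lower, adjusted p = 0.0872), with 0.0332 without WT replicate 13. Its adjusted p was 0.179 without WT replicate 32, and 19 of the 20 such fits gave no call.

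*Ccl12* differed most in size, at -1.39 ± 0.36 (2.63-fold lower, adjusted p = 0.0852 by edgeR), and 6 of 10 Hom mice lay below every WT mouse. 1 WT female, replicate 32, stood at 5.81 CPM with the next WT mouse at 2.19. Without it the log2 fold change was -0.95 (adjusted p = 0.177), and without WT replicate 13 it was -1.49 (adjusted p = 0.0472). *Ccl9* was lower by 1.64-fold (-0.71 ± 0.19, adjusted p = 0.0974), and the lowest WT mouse was above 7 of 10 Hom mice. *Ccl4* was lower by 1.68-fold (-0.75 ± 0.24, adjusted p = 0.197), and 9 of 10 Hom mice lay below its WT median.

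The remaining ligands were further from the threshold. *Ccl2* differed by -1.02 ± 0.51 (adjusted p = 0.528 by edgeR) and *Ccl5* by -0.64 ± 0.48 (adjusted p = 0.660), both on few counts. Without WT replicate 32 the *Ccl2* difference was -0.50. *Cxcl12* differed by 0.17 ± 0.13 (adjusted p = 0.663) and *Cxcl14* by -0.05 ± 0.06 (adjusted p = 0.773), and the groups overlapped widely for both.

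Sex was balanced between the groups, and a fit with sex as a covariate called 5 ligands lower in Hom mice, where 1.14% of all genes tested were called lower. They were *Ccl3* (-1.12, adjusted p = 0.00822), *Ccl6* (-0.87, 0.0103), *Cxcl16* (-0.62, 0.0246), *Ccl9* (-0.74, 0.0275) and *Ccl12* (-1.36, 0.0301). DESeq2 without a covariate called the same 5, where it called 1.34% of all genes lower. A single fit of all 40 libraries called *Ccl3*, *Ccl6*, *Ccl12* and *Cxcl16*, where 1.91% of all genes were called lower. Without replicate 19 none was called in the fit with no covariate (0.0423% of all genes were called lower), and with sex as a covariate *Ccl3* (adjusted p = 0.0151), *Ccl6* (0.0180), *Ccl9* (0.0407) and *Cxcl16* (0.0407) were, where 0.932% of all genes were called lower. In the 5 fits of this kind the log2 fold changes of these ligands lay between -0.60 and -1.39.

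In the non-amyloid cohort none of the 10 ligands was called between Hom and WT mice, where 0.0329% of all genes tested (7) were. By limma-voom and DESeq2 none was called either, and 1 ligand had an unadjusted p under 0.05 by edgeR, as had 4.49% of all genes. The median log2 fold change of the ligands was -0.24, beside -0.01 over all genes. *Ccl3* differed by -0.14 ± 0.42 and *Ccl6* by -0.04 ± 0.15, and both changed sign when non-amyloid WT replicate 15 was left out (0.04 and 0.05). *Ccl4* differed by -0.81 ± 0.49 on at most 13 counts a library. *Cxcl12*, with p = 0.00333, was higher in Hom mice (0.21 ± 0.07), and 5 of 10 Hom mice lay above every WT mouse, but its adjusted p was 0.962.

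Whether the Hom to WT difference itself differed between cohorts was tested as an interaction over all 40 libraries. No gene and no ligand was called by edgeR (0 of 21253, or 0.0%), with 10.3% of all genes and 2 ligands at an unadjusted p under 0.05. DESeq2 called 38 genes and limma-voom 0, none of them one of these ligands. The estimate was -0.80 ± 0.25 for *Ccl6* (p = 0.00295, adjusted p = 0.213), -0.98 ± 0.47 for *Ccl12* (p = 0.0446) and -0.94 ± 0.47 for *Ccl3* (p = 0.0517, adjusted p = 0.481). For *Ccl4* it was 0.06 ± 0.38 (p = 0.879), since *Ccl4* was lower in Hom mice by nearly the same log2 amount in both cohorts.

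**Figure D3:**
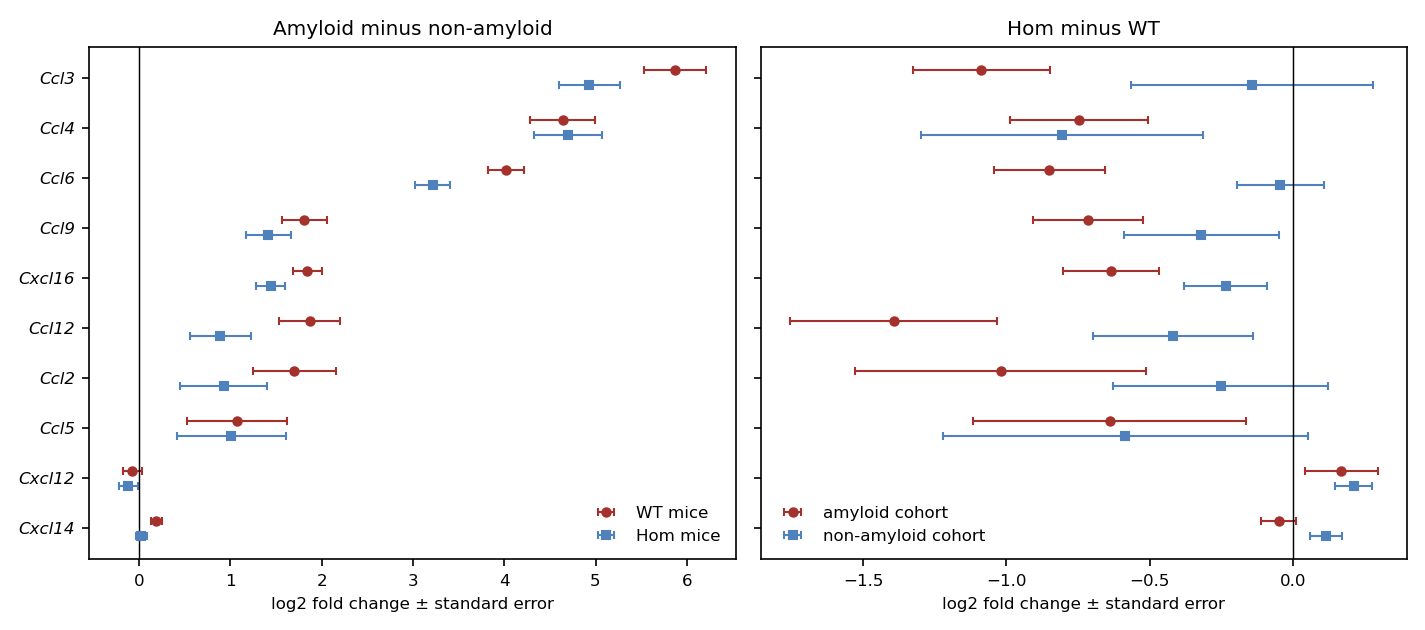
Points give the log2 fold change of each ligand and bars its standard error, for amyloid minus non-amyloid mice (left, circles WT, squares Hom) and for Hom minus WT mice (right, circles amyloid cohort, squares non-amyloid cohort). Differences between cohorts reach 5.87 for *Ccl3*, whereas those between genotypes lie between -1.39 and 0.21.

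Females had higher levels than males for most ligands in the amyloid cohort, with genotype as a covariate, but none was called, where 0.24% of all genes tested (51) were. The log2 fold change, females minus males, was positive for 8 of 10 ligands with a median of 0.47, beside 0.01 over all genes, and 6 ligands had an unadjusted p under 0.05 by edgeR where 6.0% of all genes were higher at that level. *Cxcl16* had the lowest p (0.45 ± 0.14, adjusted p = 0.226), and *Ccl12* (0.91 ± 0.31), *Ccl3* (0.60 ± 0.21), *Ccl6* (0.48 ± 0.17), *Ccl9* (0.46 ± 0.17) and *Ccl5* (1.16 ± 0.43) had adjusted p of 0.321 to 0.395. By DESeq2 and limma-voom none of the 10 was called either.

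The 5 females and 5 males of each amyloid group show how sex and genotype combined. *Ccl3* had a mean of 8.59 ± 3.55 CPM (SD, n = 5) in WT females, 6.37 ± 2.58 in WT males, 4.43 ± 1.46 in Hom females and 2.6 ± 0.63 in Hom males. *Ccl6* followed the same order, at 26.3 ± 8.81, 20.4 ± 6.73, 15.5 ± 2.86 and 10.4 ± 2.64 CPM. *Cxcl16* stood at 4.12 ± 1.28, 2.82 ± 0.71, 2.5 ± 0.28 and 1.97 ± 0.26 CPM. The mean was lower in Hom than in WT mice within each sex for all 3. No ligand had an unadjusted p under 0.05 for the interaction of genotype and sex, where 5.29% of all genes did, and edgeR, DESeq2 and limma-voom called 0 genes for it. In the non-amyloid cohort no ligand was called between the sexes by any of these tools, where 0.118% of genes were called by edgeR, and *Ccl9* (0.66 ± 0.24) and *Ccl12* (0.64 ± 0.26) were higher in females at an unadjusted p under 0.05, as were 3.15% of all genes.

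From mouse to mouse the ligands did not all vary together. For the 45 pairs of ligands, log2 CPM of the 20 amyloid mice was centred on the mean of each genotype and correlated, with p from 100000 permutations within genotype, two-sided, and adjusted over the 45 pairs. In 5 pairs both Pearson's r and Spearman's rho had an adjusted p under 0.05. *Ccl3* and *Ccl4* gave r = 0.833 (p = 4e-05, adjusted p = 0.0009) and rho = 0.827 (p = 5e-05, adjusted p = 0.00225), and r = 0.782 without the 2 mice farthest from the median of *Ccl3*. *Ccl3* and *Ccl6* gave r = 0.850 (permutation p = 1e-05, the smallest the permutations can give, adjusted p = 0.00045) and rho = 0.726 (p = 0.00064, adjusted p = 0.009), with r = 0.803 without the 2 farthest mice.

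The other 3 pairs involved *Ccl12*. *Ccl12* and *Cxcl16* gave r = 0.756 (permutation p = 0.00024, adjusted p = 0.0036) and rho = 0.714 (p = 0.0008, adjusted p = 0.009). Without the 2 mice farthest from the median of *Ccl12* the r of this pair was 0.612. *Ccl12* with *Ccl5* gave r = 0.634 (p = 0.00467) and rho = 0.768 (p = 0.00021), and with *Ccl2* r = 0.569 (p = 0.0108) and rho = 0.635 (p = 0.00391), which fell to r = 0.439 without the 2 mice farthest from the median of *Ccl2*. Without amyloid Hom replicate 19 there were 6 such pairs. *Ccl12* with *Ccl2* was then not among them (permutation adjusted p = 0.0651 for r and 0.0541 for rho), while *Cxcl16* with *Ccl5* (0.0346 and 0.0452) and with *Ccl9* (0.0346 and 0.0486) were added. When the values were centred on sex as well as genotype, the 2 pairs of *Ccl3* with *Ccl4* (r = 0.869, permutation adjusted p = 0.0027) and with *Ccl6* (r = 0.783, adjusted p = 0.00832) remained of these 5.

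**Figure D4:**
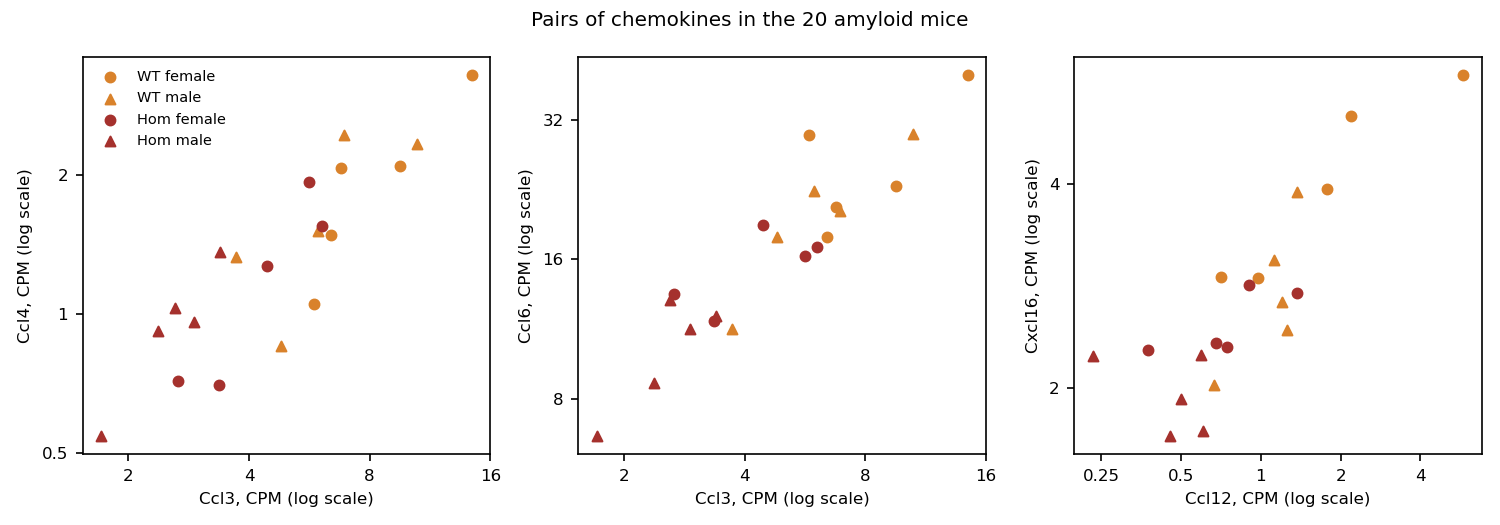
Each point is 1 of the 20 amyloid mice, placed by its CPM of 2 ligands on log axes, with circles for females, triangles for males, orange for WT and red for Hom. *Ccl3* and *Ccl4* rise together within both genotypes (r = 0.833 after centring on genotype), as do *Ccl3* with *Ccl6* and *Ccl12* with *Cxcl16*. After centring on sex as well, *Ccl12* with *Cxcl16* had permutation adjusted p of 0.0636 for r and 0.216 for rho.

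Over the 40 libraries, with group means removed, the genes most like each ligand among the 21253 tested were named by Pearson's r of log2 CPM, as a description. The libraries share depth and tissue composition, which can move many genes together. *Ccl6* was most like *Cd180* (0.770), *Ly86* (0.755) and *Cd9* (0.749). *Ccl12* was most like *Mx1* (0.783), *Ifitm3* (0.727) and *Parp14* (0.702). *Cxcl16* was most like *Lgals3bp* (0.787), *AF251705* (0.772) and *Dhx58* (0.741), and *Cxcl14* was most like *Mxd4* (0.778), *Timm22* (0.743) and *Tmed4* (0.736). *Cd180* and *Ly86* encode a receptor pair of myeloid and B cells, and *Mx1*, *Ifitm3*, *Parp14* and *Dhx58* are genes induced by interferon.

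For *Ccl9* the closest were *Tlr13* (0.695), *Ltv1* (0.691) and *Mir1191* (0.684), and for *Cxcl12* *Parm1* (0.652), *Slain1* (0.625) and *Stc1* (0.621). For *Ccl3* they were *Gm15912* (0.671), *Sdhaf1* (0.656) and *Arhgap27os3* (0.645), and for *Ccl4* *Plau* (0.593), *Ifit1* (0.578) and *Hmgn2-ps1* (0.578). For *Ccl5*, *Fhl3* (0.630) and *H2-Q7* (0.625) were among them, and for *Ccl2* *Lgals9* (0.571), *Fam65c* (0.567) and *Tec* (0.549). The highest r was thus lower for *Ccl2* and *Ccl4* than for *Ccl6*, *Ccl12*, *Cxcl14* and *Cxcl16*.

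Of 28 other chemokine ligands listed, 18 were tested, and in WT mice 5 were higher and 1 lower in the amyloid cohort, where 6.62% of all genes were called higher. Their median log2 fold change was -0.07. The interferon-induced ligands of CXCR3 were among them: *Cxcl10* was 9.15-fold higher (3.19 ± 0.43, adjusted p = 2.93e-07 by edgeR) and *Cxcl9* 4.48-fold higher (2.16 ± 0.71, adjusted p = 0.0440). *Cxcl5*, which encodes a neutrophil attractant, was 6.30-fold higher (2.65 ± 0.34), and the B cell attractant *Cxcl13* was 7.74-fold higher (2.95 ± 0.52) on few counts. *Ccl28*, expressed in mucosal epithelium, was higher (1.65 ± 0.47) and *Ccl27a*, a skin-homing ligand, was lower (-0.31 ± 0.07).

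In Hom mice *Cxcl5* (2.53 ± 0.34) and *Cxcl10* (2.62 ± 0.45) were called higher of the 18, where 5.71% of all genes were. Between Hom and WT mice none of the 18 was called by edgeR in either cohort, with 3 at an unadjusted p under 0.05 in the amyloid cohort, where the lowest p were those of *Cxcl13* (-1.67 ± 0.47, adjusted p = 0.116) and *Ccl28* (-1.47 ± 0.44, adjusted p = 0.136).

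Several receptors were also higher in the amyloid cohort. Of 23 listed, 15 were tested, and 6 were higher and none lower in WT mice (median 0.28), where 6.62% of all genes were called higher. *Cx3cr1*, the fractalkine receptor of microglia, was 2.28-fold higher (1.19 ± 0.09, adjusted p = 2.95e-13 by edgeR). *Cxcr4*, the receptor for CXCL12, was 1.85-fold higher (0.89 ± 0.21), and *Cxcr6*, the receptor for CXCL16, was 4.78-fold higher (2.26 ± 0.52) on at most 41 counts a library. *Cxcr3* (1.88 ± 0.58) and the atypical receptor *Ccrl2* (1.0 ± 0.19) were also among them.

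In Hom mice *Cx3cr1* (0.69 ± 0.09) and *Ackr4* (3.11 ± 0.78) were called higher, where 5.71% of all genes were. *Ackr4*, a scavenging receptor of CC ligands, reached 8.85 CPM in 1 amyloid Hom library against a group median of 0.0957 CPM, and without replicate 19 its adjusted p was 0.973. *Cxcr4* (0.29 ± 0.21, adjusted p = 0.423) was not called there. Between Hom and WT amyloid mice no receptor was called, with 6 at an unadjusted p under 0.05 in either direction. *Ackr4*, which was higher, is among them. Of all genes tested 5.77% were lower at that level, a share that leaves out those that were higher. *Cx3cr1* had a log2 fold change of -0.45 ± 0.12 (adjusted p = 0.0877), and with sex as a covariate it was called (adjusted p = 0.0137). *Ackr4* had one of 3.76 ± 1.01 (adjusted p = 0.0974) without the covariate.

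Genes that act downstream of the receptors were listed as 20, all tested. In WT mice 9 were higher in the amyloid cohort and none lower (median 0.31), and in Hom mice 8 were higher (median 0.11). Of all genes tested 6.62% were called higher in WT and 5.71% in Hom mice. The largest difference was that of *Rgs1*, a brake on G protein signalling, which was 8.42-fold higher in WT (3.07 ± 0.30, adjusted p = 1.03e-10 by edgeR) and 6.83-fold in Hom mice (2.77 ± 0.30). The activators of Rac *Dock2* (1.51 ± 0.12) and *Vav1* (1.47 ± 0.13), *Rac2* (1.34 ± 0.16), *Was* (1.33 ± 0.14), which nucleates actin, and the kinase subunit *Pik3cg* (1.17 ± 0.12) were also higher in WT mice.

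Between Hom and WT amyloid mice none of the 20 was called by edgeR, and their median was -0.21. In either direction 11 had an unadjusted p under 0.05. Of all genes tested 5.77% were lower at that level, a share that leaves out those that were higher. *Was* (-0.67 ± 0.15, adjusted p = 0.0554) and *Vav1* (-0.60 ± 0.15, adjusted p = 0.0798) had the lowest p. With sex as a covariate 5 of the 20 were called, *Was*, *Dock2*, *Pik3cg*, *Vav1* and *Rac2*, where 1.14% of all genes were called lower. In females of the amyloid cohort *Pik3cg* (0.47 ± 0.09), *Dock2* (0.50 ± 0.10) and *Was* (0.50 ± 0.10) were called higher than in males. Of all genes tested 0.24% were called there in either direction.

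Proteases that release or trim chemokines numbered 7, to be read against 6.62% of all genes called higher in WT and 5.71% in Hom mice. In the amyloid cohort 4 were higher in WT mice, *Mmp12* (2.97 ± 0.50), which is made by macrophages, *Mmp2* (0.46 ± 0.13), *Mmp14* (0.43 ± 0.11) and *Adam17* (0.30 ± 0.06). In Hom mice *Mmp12* (3.61 ± 0.51), *Mmp2* (0.50 ± 0.13) and *Adam17* (0.26 ± 0.06) were higher, the last not so without replicate 19. None was called between Hom and WT mice, and none had an unadjusted p under 0.05 there.

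**Figure D5:**
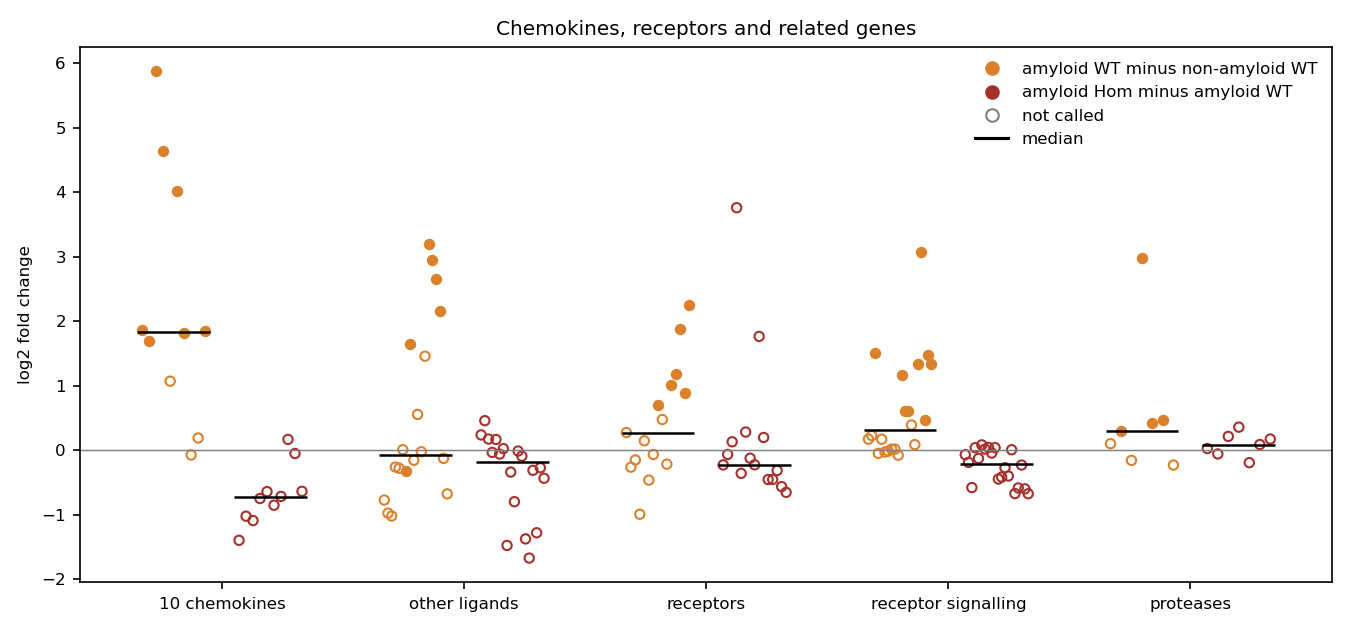
Each point is a gene tested, placed by its log2 fold change (y axis) within its list (x axis), with filled points called, open points not called and a line at the list's median. In amyloid WT minus non-amyloid WT mice (orange) the 10 ligands have the highest median, 1.83, and in amyloid Hom minus amyloid WT mice (red) the lowest, -0.73.

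Markers of microglia differed in the same directions as most of these ligands, but not as *Cxcl12*. All 15 were called higher in amyloid WT than non-amyloid WT mice (median log2 fold change 1.18), and 13 of 15 in Hom mice (0.60). Their summed level ranged from 376 to 497 CPM in non-amyloid WT, 403 to 490 in non-amyloid Hom, 718 to 1560 in amyloid WT and 569 to 1020 in amyloid Hom mice. Between Hom and WT amyloid mice all 15 log2 fold changes were negative (median -0.53), 0 were called by edgeR with 13 at an unadjusted p under 0.05, and 11 were called with sex as a covariate. Of all genes tested 5.77% were lower at that unadjusted p, and 1.14% were called lower with the covariate. In females minus males of the amyloid cohort all 15 were positive and 2 were called. The part of microglial number in the differences of the ligands was not tested.

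Markers of other cells are given as counts of those called higher in the amyloid cohort, to be read against 6.62% of all genes in WT and 5.71% in Hom mice. In WT mice they were 1 of 8 for border macrophages, 3 of 10 for astrocytes, 2 of 10 for endothelial cells, 3 of 10 tested for T and NK cells and none of 10 for neurons, 10 for CCK and VIP interneurons, 10 for oligodendrocytes or 5 for red cells. In Hom mice they were 2 of 10 for astrocytes, 2 of 10 for oligodendrocytes, 3 of 10 for T and NK cells and none in the other lists. The counts for T and NK cells are to be read with the limit of the filter given below. In WT mice 1 of 10 mural cell and fibroblast markers was lower, as was *Ngp*, a neutrophil granule gene, of the 5 monocyte and neutrophil markers tested (-3.01 ± 0.92, adjusted p = 0.0288 by edgeR). The latter was not called with sex as a covariate (adjusted p = 0.0548), and 1 non-amyloid WT library reached a summed level of 18.9 CPM over these 5 markers against a group median of 1.01.

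The T cell receptor and co-receptor genes *Cd3e* (2.6 ± 0.54, adjusted p = 6e-04 by edgeR), *Cd3g* (1.74 ± 0.55) and *Cd8a* (2.96 ± 0.55) were higher in amyloid WT mice. Of the 10 genes tested in their list, 5 log2 fold changes were positive and 5 negative, with a median of -0.075. Median counts in non-amyloid WT and amyloid WT mice were 11 and 10 for *Trbc1*, 774 and 711 for *Trbc2*, and 51 and 41 for *Gzmk*. *Cd3e* had a median of 1 count in non-amyloid WT and 7 in amyloid WT mice, and *Cd8a* had 1 and 12. *Cd3e*, *Cd3g* and *Cd8a* each had a median of 1 count in non-amyloid Hom mice as well, and *Cd3g* also in non-amyloid WT mice. These genes may thus have passed the filter on low counts only through the amyloid cohort, where they were higher. Their calls are to be read with that limit. *Cd4*, which is also expressed by macrophages, was lower (-0.72 ± 0.19) and carried much of the summed level of the list, with medians of 1484 and 917 counts. That sum was 23.8 to 37.9 CPM in non-amyloid WT and 16.7 to 29.4 CPM in amyloid WT mice. Summed neuronal markers were 11400 to 13200 CPM and 11300 to 13300 CPM in the same groups. Between Hom and WT mice no gene of these lists was called without a covariate in either cohort, and with sex as a covariate the astrocyte marker *Gfap* was called in the amyloid cohort (-0.90, adjusted p = 0.00904). The part of these cells in the differences of the ligands was not tested.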

How the data were processed

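Cortical RNA of 40 mice was sequenced as poly-A selected, paired-end libraries. The authors counted reads per gene and deposited raw counts, with no normalization, as 1 table of 43346 genes, of which 9666 had no count. The paper gives mm10 and TopHat, the submitters' notes STAR 2.5.2b, and for counting featureCounts 1.5.1, and the paper names an earlier featureCounts release, so the aligner and counter version are uncertain, and no strand setting is given in the sources used here. Each label gave 1 mouse its group. Within groups 180 pairs of libraries all differed by more than sampling noise. All 10 amyloid Hom libraries were kept. The paper excluded 1 female of that group, without naming it, for a low gene count percentage and its strandedness check. Replicate 19, a female of that group with the lowest total and the largest opposite-strand share, may be that library, but the labels do not say.

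The 21253 genes with 10 or more counts in 4 or more libraries were tested with edgeR 4.0.16 (glmQLFit and glmQLFTest, TMM) in R 4.3.3, with DESeq2 1.42.0 and limma 3.58.1 as alternatives. The paper's methods name the edgeR quasi-likelihood test and no covariate for it, and none was used here between genotypes or cohorts outside the alternatives. Hom and WT were compared within the 20 libraries of a cohort, the cohorts and the interaction in 1 fit of 40. Standard errors were computed here from the quasi-likelihood F. CPM and log2 CPM (prior count 2) were computed from the deposited counts. Permutations and figures used Python 3.11.15 with SciPy 1.17.1 and matplotlib 3.10.9. The tests were tried on simulated counts.

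The members and all gene lists were chosen with earlier results of these data known. Genes named are the 10 members, *Trem2*, *App* and *Thy1*, the called genes (at most 6 with the lowest p) of the lists of other ligands, receptors, signalling genes and proteases or else the 2 with the lowest p, and the 3 genes most like each member, except that some items are not reported here. *Cxcr4* in Hom mice, and *Cd3e*, *Cd3g*, *Cd8a*, *Cd4*, *Trbc1*, *Trbc2*, *Gzmk*, *Ngp* and *Gfap*, were named after their values were seen. Promoter sequences are those of RefSeq for GRCm38.p6. No column of other samples was found in the table. Intervals of depth were not needed beyond the totals given. The p-values of group tests set a difference against the spread between these mice, and those of pairs of ligands come from permutations of these mice.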

Additional observations from a re-analysis of the deposited data

Results flagged for a closer look

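For each ligand and group of 10 mice, the gap between the extreme mouse and its neighbour was divided by the range of the group, and 7 of 40 sets of values had a ratio above Dixon's 95% critical value for 10. That value gives about 1 such set in 20 for normally distributed values. CPM were used without a log and rest on few counts for some ligands, so the rate may not hold here. In all 7 sets the mouse set apart was the highest. In amyloid WT mice, replicate 32, a female, had 5.81 CPM of *Ccl12* with the next mouse at 2.19, and 1.16 CPM of *Ccl2* with the next at 0.381. *Ccl5* stood apart in 3 groups: at 0.432 CPM in amyloid WT replicate 12, at 0.247 CPM in non-amyloid WT replicate 38 and at 0.160 CPM in non-amyloid Hom replicate 23. *Ccl4* stood at 0.204 CPM in non-amyloid WT replicate 28, and *Cxcl14* at 78.0 CPM in non-amyloid Hom replicate 11, with the next mouse at 64.4. The *Ccl4* and *Ccl5* values rest on at most 34 counts.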

How the results depend on the processing

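In the amyloid cohort Hom and WT mice differed in 16 genes, but in 303 by DESeq2, 25 by limma-voom, 8 with no filter, 251 with sex as a covariate, 204 with sex and without replicate 19, and 612 in one fit of all 40 libraries. Leaving out 1 library gave 6 to 204, with 204 without WT replicate 13, 95 without WT 22, 60 without WT 9, 65 without Hom 3, 30 without Hom 34 and 6 to 14 without any other. In the non-amyloid cohort 7 genes became 11 by DESeq2 and 4 to 8 without 1 library. The interaction of genotype and cohort went from 0 genes to 38 by DESeq2, 12 with sex, 6 with sex and without replicate 19, and 0 to 22 without 1 library, 22 being without amyloid WT replicate 13. Females and males of the amyloid cohort differed in 51 genes, in 257 by DESeq2, 113 by limma-voom, 26 with no filter and 107 without replicate 19. In the non-amyloid cohort 25 became 48 by DESeq2 and 38 by limma-voom. The cause was not tested. Of the 5 pairs of ligands correlated, 2 remained after centring on sex, and without replicate 19 there were 6, with 1 lost and 2 added.

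Signs changed only for ligands that were not called, by limma-voom, without replicate 19 or without 1 library, among the alternatives run. By limma-voom, Hom minus WT in the amyloid cohort was 0.002 for *Ccl5* and 0.009 for *Cxcl14*, the interaction with cohort -0.081 for *Ccl4* and 0.519 for *Ccl5*, females minus males in the non-amyloid cohort -0.194 for *Ccl3* and 0.275 for *Ccl4*, and the interaction with sex 0.0 for *Ccl4*. Without replicate 19, females minus males was 0.001 for *Cxcl14* and the interaction with cohort 0.027 for *Ccl5*. Without 1 library, Hom minus WT in the non-amyloid cohort ranged from -0.289 to 0.043 for *Ccl3* and from -0.1 to 0.045 for *Ccl6*. The interaction with cohort then ranged from -0.222 to 0.238 for *Ccl4*, from -0.59 to 0.411 for *Ccl5* and from -0.11 to 0.012 for *Cxcl12*. Leaving libraries out of the cohort comparisons and the interaction was chosen after seeing the data.

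No paired analysis was possible because the replicate numbers run from 1 to 40 and no 2 groups share one. *Ccl2*, *Ccl5* and, outside the amyloid cohort, *Ccl3* and *Ccl4* rest on few counts, and the smallest detectable difference was not measured there.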
